A study of Mus musculus with 4 samples.

Results

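Solute carriers are the membrane proteins that move amino acids, sugars, metals, ions, peptides and cofactors across the plasma membrane and the membranes of organelles. They were described here in macrophages sorted from tumor-bearing mouse lungs, as the genes with a name of the form Slc, family number, A and member number. The deposited table gives FPKM values (fragments scaled by transcript length and by library total) and held 280 such rows. Of these, 129 are described below, chosen by their level alone, an average across both groups of no less than 1 FPKM. In all 12691 genes of any name reached that level and were tested. They fall into 41 families, 14 of which had a single gene above the limit.

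The 4 libraries come from bone marrow chimeras. All recipients were KL mice, which carry KrasLSL-G12D/+ and Lkb1fl/fl, were lethally irradiated before the marrow transfer, and were given Ad-Cre by the nose to start lung tumors. Donor marrow was Tmem173fl/fl without Cre in the group named WTKL and Tmem173fl/fl;Lyz2-Cre in the group named LYZKL, with 2 libraries each, and cells were taken 8 weeks after Ad-Cre. Tmem173 encodes STING, the adaptor that answers cyclic dinucleotides made when DNA is sensed in the cytosol. Lyz2-Cre is placed in the lysozyme locus and is active in macrophages and also in neutrophils and monocytes, so loss of Tmem173 and presence of the Cre allele cannot be told apart. Tumor cells and any surviving resident cells of the recipient do not carry the donor's alleles. The sort kept CD11b-positive, Ly6G-negative, CD64-positive cells with low Siglec-F. The labels leave unsaid how many animals stand behind each library, so every p-value measures the spread between these libraries, which may be technical.

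Macrophages rely on these carriers for several of the tasks they are known for. Cystine is taken up in exchange for glutamate to make glutathione, lactate from glycolysis leaves through monocarboxylate carriers, and iron recovered from engulfed cells passes from the phagosome to the cytosol and out through ferroportin. Lysosomal carriers return the amino acids, nucleosides and peptides of digested cargo to the cytosol, and some of them shape signalling by nucleic acid sensors.

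The targeted gene followed the labels: Tmem173 had 15.4 and 15.2 FPKM in WTKL against 5.02 and 4.75 in LYZKL, a log2 difference of −1.47 in log2(FPKM + 1) with an adjusted p of 0.0452. The libraries corresponded to 15466117 and 22867836 reads (WTKL) and 16453512 and 18322164 reads (LYZKL), as rebuilt from the FPKM values, and every solute carrier gene above the limit had at least 42 reads in each library. Macrophage markers were abundant in all 4, with 11 of 12 in the table, summed levels of 6105 and 6028 FPKM in WTKL and 5312 and 5654 in LYZKL, and a median log2 difference of −0.14. Most of these sums was Apoe, with 4415 and 4424 FPKM in WTKL and 3705 and 4067 in LYZKL. Neutrophil markers were higher in LYZKL: of 14 in the table the summed level was 2404 and 1882 FPKM in WTKL against 5602 and 3652 in LYZKL, and 8 of the 11 tested were higher at an unadjusted p under 0.05. Among the mature neutrophil genes, S100a9 had 2061 and 1562 FPKM in WTKL against 4860 and 3079 in LYZKL, and Csf3r 66.7 and 57.7 against 155 and 120. Cxcr2 had 20.98 and 19.7 FPKM against 63.4 and 48.3. Ly6g, the gene of the marker used to gate neutrophils out (0.418 to 0.985 FPKM), and the precursor genes Camp (0.0802 to 0.360) and Mpo (0.0355 to 0.112) were below 1 FPKM in all 4 libraries, while the granule genes Ltf and Ngp reached 22.5 and 9.56 FPKM. Markers of T and NK cells were lower in LYZKL, with summed levels of 119 and 113 FPKM against 66.4 and 83.6 over 16 genes, and 10 of the 13 tested were lower at an unadjusted p under 0.05. Genes of the sort markers differed too. Siglecf, which encodes Siglec-F of alveolar macrophages, rose from 6.05 and 6.80 FPKM in WTKL to 15.55 and 15.6 in LYZKL (adjusted p 0.0452), and Fcgr1, which encodes CD64, had 25.5 and 24.7 FPKM against 19.5 and 20.8 (adjusted p 0.114). Of 8 alveolar macrophage markers 6 were tested, of which 3 were higher (Siglecf, Marco and Fabp4) and 1 lower (Chil3) at an unadjusted p under 0.05. The summed level of the 8 was 1348 and 1600 FPKM in WTKL against 1233 and 1266 in LYZKL, of which Chil3 held 1133 and 1312 against 970 and 985. Marco had 25.3 and 22.4 FPKM against 33.4 and 40.5. The part of other cell types, or of a different mix of macrophages, in any difference below was not tested. In bulk RNA, fewer cells of a type and less RNA per cell cannot be told apart.

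**Figure D1:**
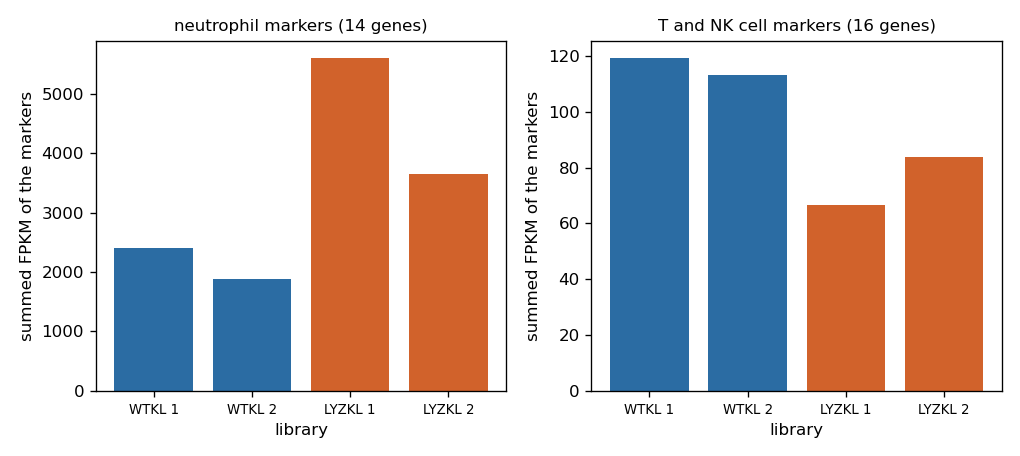
Summed FPKM of 14 neutrophil markers (left) and of 16 T and NK cell markers (right), 1 bar per library, with both axes starting at 0. Both LYZKL libraries stand above both WTKL libraries for neutrophil markers and below them for T and NK cell markers. Most of the neutrophil sum is S100a9, with 2061 and 1562 FPKM in WTKL and 4860 and 3079 in LYZKL.

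The macrophages expressed a broad but uneven set of carriers. The 129 genes summed to 1402 and 1407 FPKM in WTKL and to 1481 and 1444 in LYZKL, or 0.376% to 0.407% of the column sums, and the 10 most abundant of them held 49.9% of this amount. Their median level over the 4 libraries was 4.72 FPKM, against 5.79 for all genes tested. By mean level, 2 genes were above 100 FPKM, 26 between 10 and 100, 34 between 5 and 10, 45 between 2 and 5 and 22 between 1 and 2. The remaining 151 rows of the name form were below 1 FPKM, 79 of them below 0.1, and none was at 0 in all 4 libraries.

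Since the mean level chose the genes, the levels are a description. Just inside the limit lay Slc10a7 (1.01 FPKM), Slc40a1 (1.02), Slc52a3 (1.02), Slc43a3 (1.06) and Slc35a2 (1.10). Just outside it lay Slc9a8 and Slc25a16 (both 0.999), Slc52a2 (0.975), Slc39a3 (0.952) and Slc2a9 (0.870). Slc10a7 and Slc40a1 reached 1 FPKM in the mean of LYZKL only and Slc52a3 in the mean of WTKL only, so the sign of their difference is tied to how they were chosen.

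At the top stood Slc15a3, a proton-coupled carrier of peptides and histidine in the lysosome, on chr19:10839727-10859362 of GRCm38 (the assembly of mm10), with 198 and 192 FPKM in WTKL and 213 and 192 in LYZKL. Slc3a2, the CD98 heavy chain that brings the light chains of family 7 to the cell surface, came next with 140 and 137 FPKM in WTKL and 133 and 130 in LYZKL. Slc39a7, which releases zinc from the endoplasmic reticulum, followed with 76.6 and 81.8 against 82.6 and 89.4 FPKM. Exons of Slc15a3 and Slc39a7 are partly shared with other genes, in libraries that did not mark strand. For Slc15a3, 28.1% of the exon bases overlap Tmem132a on the other strand. For Slc39a7, 80.7% overlap the gene model Gm20427 on the same strand. How reads over such bases were assigned was not examined.

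The next places were held by housekeeping carriers and by genes with a known role in macrophages. Slc25a5, an adenine nucleotide translocase of the mitochondrial inner membrane, and Slc25a3, the mitochondrial phosphate carrier, had means of 51.1 ± 0.762 and 49.2 ± 1.08 FPKM in WTKL (SD, n = 2) and of 50.04 ± 1.65 and 47.8 ± 0.0562 in LYZKL. Slc6a6, the taurine carrier, had 45 ± 2.78 and 46.9 ± 0.266 FPKM. Slc20a1, which takes up phosphate with sodium, had 40.6 ± 2.37 and 49.0 ± 1.94 FPKM, and Slc11a1, which moves divalent metals out of the phagosome, 36.1 ± 2.63 and 42.6 ± 5.74. Slc38a2, a carrier of small neutral amino acids that cells raise when amino acids run short, had 38.7 ± 3.83 and 38.9 ± 1.74 FPKM. Slc39a1, a zinc importer of the plasma membrane, closed the 10 with 30.4 ± 1.07 and 31.9 ± 1.74 FPKM. Among these 10 genes the groups overlapped for 5, and no gene of the 10 had a difference past the threshold.

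**Figure D2:**
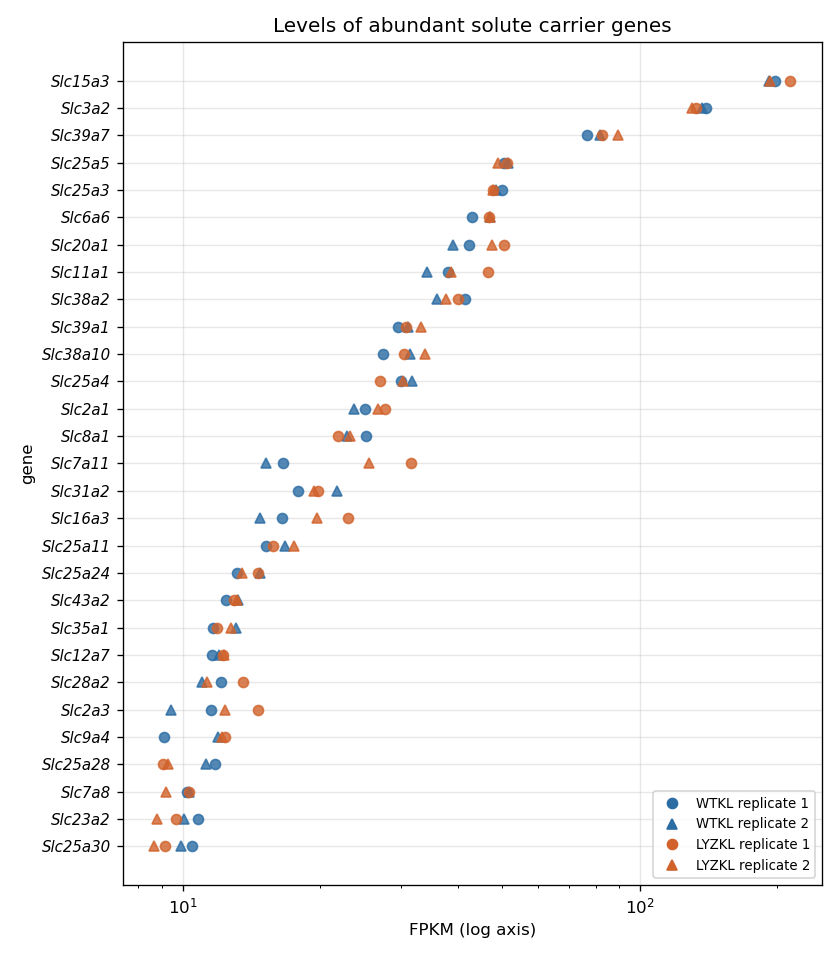
FPKM (log axis) of 29 of the 30 most abundant solute carrier genes, with 1 point per library. Slc15a3 and Slc3a2 stand above 100 FPKM in all 4 libraries, and the gaps between libraries are small beside the range of levels, apart from genes such as Slc7a11, Slc16a3 and Slc2a3 whose LYZKL points lie to the right.

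The comparison of LYZKL with WTKL asks whether the carriers differ when the marrow carries Lyz2-Cre and floxed Tmem173. Most did not differ by much: 110 of the 129 had a LYZKL mean between 0.8 and 1.25 times the WTKL mean. At a ratio of at least 1.25 stood 13 genes (10.1% of them, against 12.4% of all genes tested) and at 0.8 or less 6 genes (4.65%, against 10.4%). The differences in log2(FPKM + 1) ran from −0.34 for Slc4a7 to 0.80 for Slc7a11, with a median of 0.01, against 0.01 over all genes tested, and were above 0 for 69 genes and below 0 for 60.

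No solute carrier gene passed the threshold of 0.05 in limma after Benjamini-Hochberg adjustment over the 12691 genes, where 0.292% of all genes tested passed, 0.158% higher and 0.134% lower. The smallest adjusted p was 0.0641. At an unadjusted p under 0.05 there were 16 (12.4%, against 18.8% of all genes tested), of which 11 were higher in LYZKL and 5 lower, against 10.9% and 7.85% of all genes. The groups did not overlap for 60 of the 129 (46.5%, against 52.2%), with 35 higher (27.1%, against 27.8%) and 25 lower (19.4%, against 24.4%). In a design of 2 against 2 an exact two-sided permutation test of a single gene cannot go below 0.333, so the calls rest on the spread that limma shares across genes.

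A count model on reads rebuilt from the FPKM values (limma-voom) called 14 of the 129, 13 higher and 1 lower, against 9.24% of all genes in that fit, 5.74% higher and 3.49% lower. Among the 13 higher were Slc7a11, Slc24a1, Slc25a18, Slc16a3, Slc26a11, Slc20a1, Slc40a1, Slc22a15, Slc16a6, Slc2a3, Slc37a2 and Slc2a6, and the lower was Slc4a7. Slc40a1 reached the level limit only through LYZKL, where it was higher. Among the 126 genes at the limit in both groups the calls were 12 higher and 1 lower. The neutrophil markers and Siglecf were higher and the T and NK cell markers lower in these LYZKL libraries, as given above. Any link to the limma-voom calls was not tested.

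**Figure D3:**
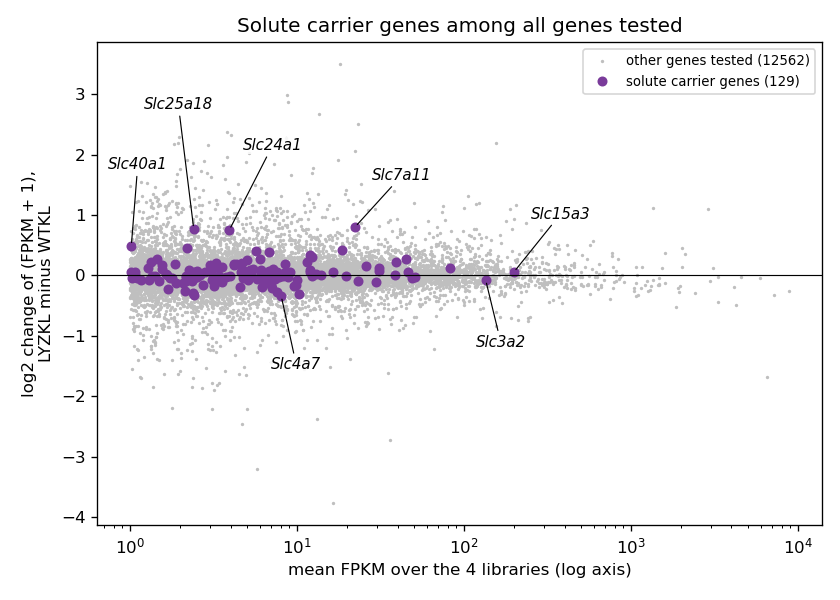
Difference in log2(FPKM + 1), LYZKL minus WTKL, against the mean FPKM over the 4 libraries (log axis), for the 129 solute carrier genes (large points) and the 12562 other genes tested (small points). The solute carrier genes lie between −0.34 and 0.80, while some of the other genes lie far outside that range.

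Amino acid carriers came first in amount, with 20 genes of families 1, 3, 6, 7, 36, 38 and 43 and a median log2 difference of 0.02. Groups did not overlap for 4 higher and 4 lower genes, and 1 of the 20, Slc7a11, was at an unadjusted p under 0.05. For this and the later groups and lists, the shares of all genes tested without overlap were 27.8% higher and 24.4% lower. At an unadjusted p under 0.05 they were 10.9% higher and 7.85% lower. Slc7a11 (chr3:49892526-50443614, minus strand) is the light chain of the cystine/glutamate exchanger that supplies cysteine for glutathione. It was listed at 16.6 and 15.2 FPKM in WTKL, against 31.6 and 25.6 in LYZKL, from 3564 and 4853 reads against 7233 and 6533. Both LYZKL libraries stood well above both WTKL libraries. The means were 15.9 ± 0.925 and 28.6 ± 4.22 FPKM (SD, n = 2), a ratio of 1.80 and a log2 difference of 0.80 (SE 0.12), with an adjusted p of 0.0778. Across the alternatives its adjusted p ran from 0.000228 (limma-voom) to 0.279 (without WTKL replicate 1), and it was 0.0380 when only genes of at least 5 FPKM were fitted. That fit called Slc7a11 alone of 62 solute carrier genes, against 4.98% of all genes in it, 2.99% higher and 1.99% lower.

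The promoter of Slc7a11 is shown because the gene had the largest difference of the set in log2(FPKM + 1), though not by ratio or in limma-voom, and because its start region is known to bind ATF4, a factor of the response to amino acid shortage. The 250 bases before its RefSeq start lie on the minus strand at chr3:50443614-50443863 (GRCm38.p6). Capitals mark the amino acid response element, searched on both strands as TGATGNAA.

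Slc7a11: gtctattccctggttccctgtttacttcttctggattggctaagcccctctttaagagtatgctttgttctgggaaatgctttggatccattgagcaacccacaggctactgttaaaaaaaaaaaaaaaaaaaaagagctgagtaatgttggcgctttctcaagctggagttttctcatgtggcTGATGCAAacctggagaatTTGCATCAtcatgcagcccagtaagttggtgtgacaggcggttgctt

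The element occurs at positions −66 to −59 on the gene's strand and at −47 to −40 on the other strand, counted from the start. It was found in 3.45% of the 32851 RefSeq promoters of this length and in 6 of the 128 promoters (4.69%) that the table holds for 97 of the carriers. A match is a description of the sequence and does not show that a factor was bound.

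The partner and the sisters of Slc7a11 stayed closer to their WTKL levels, though the differences between genes were not tested. Slc3a2, its heavy chain, was lower in both LYZKL libraries by a small amount, 138 ± 2.24 against 131 ± 1.69 FPKM (log2 difference −0.07, SE 0.05, adjusted p 0.464). Slc7a5, the leucine exchanger, had 3.77 and 4.28 FPKM in WTKL and 5.10 and 4.33 in LYZKL, a log2 difference of 0.18 (adjusted p 0.440). Slc7a8, another exchanger of neutral amino acids, was at 10.2 and 10.3 FPKM against 10.3 and 9.20, and its groups overlapped. Slc7a7 and Slc7a6, which exchange cationic for neutral amino acids, had ratios of 0.913 and 0.901. Slc7a1, which takes up arginine and lysine, was at 3.44 and 3.41 FPKM in WTKL and 3.04 and 2.79 in LYZKL, a log2 difference of −0.18 (SE 0.08, adjusted p 0.347), with no overlap of the groups.

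Carriers of glutamine and other neutral amino acids had similar means in both groups. Slc1a5 had means of 5.24 ± 0.469 and 5.42 ± 0.120 FPKM, Slc38a1 of 8.84 ± 0.0131 and 9.26 ± 0.159, and the lysosomal carriers Slc38a7, Slc38a9 and Slc36a1 had ratios of 0.987, 0.961 and 1.02. Slc43a2, a leucine carrier, was at 12.8 ± 0.555 and 13.0 ± 0.106 FPKM. Slc38a6 was lower in both LYZKL libraries (6.53 and 6.75 against 5.95 and 5.49 FPKM, adjusted p 0.280), but 61.8% of its 75-base stretches also occur in other genes, so its level is uncertain. Slc6a8, the creatine carrier, was at 1.54 and 1.83 FPKM in WTKL and 2.03 and 2.05 in LYZKL, without overlap and with an adjusted p of 0.444.

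Genes that act beside these carriers gave a mixed picture. Of 10 genes of glutathione and the oxidant response that were tested, 2 were higher and 2 lower at an unadjusted p under 0.05. Gsr, which regenerates glutathione, was at 56.7 and 52.4 FPKM in WTKL, against 95.2 and 84.0 in LYZKL (adjusted p 0.0641), and Chac1, which degrades glutathione, at 0.711 and 0.882 against 2.41 and 1.80 (adjusted p 0.110). Gclc, of the enzyme that starts glutathione synthesis, was at 12.4 and 11.6 FPKM against 10.1 and 10.5. Of 11 tested genes of the response to amino acid shortage, 4 were higher at an unadjusted p under 0.05 (Chac1, Ddit3, Ddit4 and Sesn2) and none lower, with a list median of 0.10. Atf4 itself had 171 and 158 FPKM in WTKL and 172 and 169 in LYZKL.

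Among the enzymes that use arginine, 2 passed the threshold. Of 8 genes tested, Nos2, the inducible nitric oxide synthase, fell from 20.8 and 21.2 FPKM to 8.18 and 9.06 (adjusted p 0.0452), and Ass1, which remakes arginine from citrulline, fell from 47.1 and 45.9 to 25.3 and 27.2 (adjusted p 0.0478). Odc1, which makes polyamines from the product of arginase, was at 109 and 99.9 FPKM against 75.8 and 84.8 (adjusted p 0.130). The 2 arginases lay on opposite sides, with Arg1 at 677 and 605 FPKM against 563 and 601 (adjusted p 0.441) and Arg2 at 35.2 and 29.5 against 59 and 46.5 (adjusted p 0.130). The carriers of cationic amino acids described here, Slc7a1, Slc7a6 and Slc7a7, had none past the threshold, with ratios of 0.851, 0.901 and 0.913.

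Carriers of sugars and monocarboxylates had the highest median difference of the 7 solute groups, 0.11 over 13 genes. Groups did not overlap for 6 higher and 2 lower genes, and 4 were higher and 1 lower at an unadjusted p under 0.05. The limma-voom fit called 5, all higher, against 5.74% of all genes in that fit higher and 3.49% lower. Of 9 listed genes of family 2, the facilitative hexose carriers, the 3 above the level limit stood higher in both LYZKL libraries. Below the limit, Slc2a8 was lower without overlap (0.866 and 0.450 FPKM in WTKL, 0.436 and 0.408 in LYZKL). Groups overlapped for Slc2a9, Slc2a12, Slc2a5, Slc2a7 and Slc2a13. Slc2a1, the glucose carrier of most cells, was at 25.1 and 23.7 FPKM in WTKL and 27.8 and 26.7 in LYZKL, a ratio of 1.12 (adjusted p 0.272). Slc2a3, a glucose carrier of high affinity that is abundant in neutrophils too, was at 11.5 and 9.44 FPKM against 14.6 and 12.4, a ratio of 1.29 (adjusted p 0.273 in limma on FPKM and 0.0432 in limma-voom, the lowest of a range up to 0.656). Slc2a6, a carrier of lysosomal membranes, was at 5.76 and 5.80 FPKM against 8.74 and 7.003, a log2 difference of 0.38 (SE 0.11, adjusted p 0.201, range over the alternatives 0.0482 to 0.477).

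In the monocarboxylate family the 2 lactate carriers above the level limit stood on opposite sides. Slc16a3 (chr11:120948480-120960868), known as the lactate exporter of strongly glycolytic cells, was at 16.5 and 14.7 FPKM in WTKL, against 23.03 and 19.7 in LYZKL. Its means were 15.6 ± 1.22 and 21.4 ± 2.37 FPKM, a log2 difference of 0.43 (SE 0.10) with an adjusted p of 0.149, and 0.00764 to 0.426 over the alternatives. Slc16a1, a lactate carrier that works in both directions, was at 7.73 and 7.51 FPKM in WTKL, against 6.08 and 6.82 in LYZKL, a log2 difference of −0.21 (SE 0.08) with an adjusted p of 0.266. Neither group of libraries overlapped the other for either gene, and the difference between the 2 genes was not tested. Slc16a6, which carries ketone bodies, was at 5.34 and 5.28 FPKM against 6.61 and 6.72 (log2 difference 0.28, SE 0.06, adjusted p 0.135), with 23.5% of its exon bases shared with Amz2 on the other strand.

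Promoters of both lactate carriers are shown to set their hypoxia response cores side by side. Both are the 250 bases before the RefSeq start on the plus strand (GRCm38.p6), at chr11:120948817-120949066 for Slc16a3 and chr3:104638414-104638663 for Slc16a1. Those of Slc16a3 lie inside the gene span given above, which starts farther upstream in the GENCODE M21 annotation. Capitals mark the core ACGTG, searched on both strands.

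Slc16a3: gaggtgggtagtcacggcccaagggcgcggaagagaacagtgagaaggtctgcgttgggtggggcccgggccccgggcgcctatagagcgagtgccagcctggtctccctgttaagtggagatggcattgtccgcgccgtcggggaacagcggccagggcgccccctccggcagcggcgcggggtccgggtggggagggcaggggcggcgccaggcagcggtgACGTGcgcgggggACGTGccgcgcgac

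Slc16a1: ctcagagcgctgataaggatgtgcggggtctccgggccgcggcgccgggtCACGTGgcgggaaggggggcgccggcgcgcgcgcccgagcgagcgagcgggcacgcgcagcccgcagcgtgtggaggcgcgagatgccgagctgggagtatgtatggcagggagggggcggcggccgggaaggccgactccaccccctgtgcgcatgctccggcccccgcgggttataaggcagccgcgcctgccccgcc

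Slc16a3 holds the core at −27 to −23 and at −14 to −10, both on its own strand, while Slc16a1 holds it on both strands of a single CACGTG, which is also the E-box. The core is common: 16.6% of all promoters of this length and 33 of the 128 carrier promoters (25.8%) contain it. A further 4 patterns were searched on both strands. The antioxidant response core TGACNNNGC was in 10.2% of all promoters and 15.6% of carrier promoters, the interferon-stimulated response element in 2.98% and 0.781%, the gamma-activated pattern TTCNNNGAA in 7.02% and 7.03%, and the metal response pattern TGCNCNC in 44.4% and 48.4%.

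Glycolysis genes did not share the direction of Slc16a3 and the 3 hexose carriers above the level limit. Of 18 tested, none was higher and 3 were lower at an unadjusted p under 0.05 (Hk3, Pfkl and Pfkp), with a median of −0.03. Hk3, a hexokinase of blood cells, was at 49.6 and 51.3 FPKM in WTKL and 38.4 and 41.2 in LYZKL (adjusted p 0.0963). Ldha, which makes lactate, was at 86.9 and 85.7 FPKM against 81.5 and 85.3, and Bsg, the chaperone of both lactate carriers, at 181 and 197 against 170 and 171. Of 10 tested hypoxia response genes 3 were higher and none lower at that level, with a median of 0.10. Among them Egln3, an oxygen-sensing hydroxylase, passed the threshold and rose from 5.27 and 4.78 FPKM to 22.2 and 17.4 (adjusted p 0.0478).

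Carriers inside organelles completed the sugar group. Slc37a2, a sugar phosphate carrier of the endoplasmic reticulum known from macrophages, was at 4.55 and 4.44 FPKM in WTKL and 5.45 and 5.62 in LYZKL, a log2 difference of 0.25 (SE 0.07, adjusted p 0.175). Slc37a4, the glucose-6-phosphate carrier, and Slc37a1 and Slc37a3 had overlapping groups and ratios of 1.13, 0.898 and 0.985. Slc5a3, which takes up inositol, was lower in both LYZKL libraries with a ratio of 0.906, and the sugar carriers Slc45a4 and Slc50a1 had ratios of 0.934 and 0.932.

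Metal and heme carriers, 23 genes of families 11, 30, 31, 39, 40, 41 and 48, had a median log2 difference of −0.01. Groups did not overlap for 6 higher and 5 lower genes, and 2 were lower at an unadjusted p under 0.05. The 2 iron and manganese carriers of family 11 lay on opposite sides. Slc11a1, known as Nramp1 and found in the phagosomes of macrophages and in granules of neutrophils, was at 37.97 and 34.3 FPKM in WTKL and 46.7 and 38.5 in LYZKL, a ratio of 1.18 (adjusted p 0.373). Slc11a2, the iron carrier of most cells, was at 2.43 and 2.40 FPKM against 1.76 and 1.92, a log2 difference of −0.26 (SE 0.09, adjusted p 0.252).

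RNA of the iron exporter was low throughout. Slc40a1, the gene of ferroportin, was listed at 0.697 and 0.637 FPKM in WTKL and 1.72 and 1.01 in LYZKL, from 97 and 131 reads against 255 and 167, a log2 difference of 0.49 (SE 0.19, adjusted p 0.281). The adjusted p was 0.0252 in limma-voom, the lowest of its alternatives, and 0.606 at the other end, and the gene passed the level limit only through LYZKL. Slc48a1, which brings heme out of the phagolysosome, was at 5.504 and 6.23 FPKM against 6.17 and 6.41, with overlapping groups. Of 11 tested genes of iron and heme handling none was higher and 1, Blvrb, was lower at an unadjusted p under 0.05, and Hmox1, the heme-degrading enzyme, had 65.4 and 73.3 FPKM against 70.6 and 67.6.

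The zinc carriers of family 30 above the level limit, 5 of the 9 listed, all had a difference below 0. Of these 5, 3 changed sign under at least 1 alternative. Below the limit, groups overlapped for Slc30a6, Slc30a3, Slc30a2 and Slc30a10. Among the 5 of family 30, Slc30a1, the zinc exporter of the plasma membrane, was at 3.00 and 2.61 FPKM in WTKL and 1.97 and 2.12 in LYZKL, a ratio of 0.730 and a log2 difference of −0.32 (SE 0.10, adjusted p 0.217). Slc30a4, a carrier of vesicles, was at 1.90 and 1.91 FPKM against 1.59 and 1.38 (log2 difference −0.23, adjusted p 0.341). The secretory pathway carriers Slc30a5 and Slc30a7 and the mitochondrial Slc30a9 had overlapping groups and ratios of 0.998, 0.961 and 0.977.

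Zinc importers of family 39 leaned neither way, with a median of 0.01 over 9 genes, 3 higher and 1 lower without overlap. Slc39a7 had a ratio of 1.09 (adjusted p 0.428) and Slc39a11 one of 1.18 (adjusted p 0.436). Slc39a2 was at 7.28 and 9.51 FPKM in WTKL and 6.19 and 7.27 in LYZKL, groups that nearly met, with an adjusted p of 0.405. Slc39a14, which also carries iron, had means of 1.82 ± 0.154 and 1.72 ± 0.0617 FPKM. Of 7 tested genes of zinc and copper handling 1 was lower at an unadjusted p under 0.05: Sod1, the copper-zinc superoxide dismutase, at 164 and 161 FPKM against 130 and 142.

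Both copper carriers are neighbours on chromosome 4, 62316 bases apart. Slc31a1, the main copper importer, was at 7.28 and 7.56 FPKM in WTKL and 6.56 and 6.59 in LYZKL, a log2 difference of −0.15 (SE 0.06, adjusted p 0.2996). Slc31a2, its relative in endosomes, was more abundant at 17.8 and 21.7 FPKM against 19.7 and 19.4, with overlapping groups. The magnesium carriers Slc41a1, Slc41a2 and Slc41a3 had ratios of 0.971, 0.908 and 1.22.

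Mitochondrial carriers formed the largest family, with 26 genes and summed levels of 264 and 274 FPKM in WTKL and 263 and 267 in LYZKL. Their median log2 difference was −0.02, with 5 higher and 7 lower genes without overlap and 1 of each at an unadjusted p under 0.05. The higher was Slc25a18 (chr6:120773578-120794336), a glutamate carrier, at 1.56 and 1.46 FPKM in WTKL and 3.69 and 2.91 in LYZKL, from 46 and 64 reads against 116 and 102. Its ratio of 2.19 was the largest of the 129 genes, with a log2 difference of 0.77 (SE 0.13) and an adjusted p of 0.0875 (0.00890 to 0.304 over the alternatives). The gene overlaps Atp6v1e1, of the lysosomal proton pump, on the other strand over 1.7% of its exon bases, and that gene was far more abundant at 85.9 and 88.6 FPKM against 99.3 and 93.0.

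The lower was Slc25a28, mitoferrin-2, which brings iron into mitochondria. It was at 11.8 and 11.3 FPKM in WTKL and 9.03 and 9.26 in LYZKL, a ratio of 0.794 and a log2 difference of −0.30 (SE 0.06) with an adjusted p of 0.114 (0.0703 to 0.392 over the alternatives). Its relative Slc25a37, mitoferrin-1, was at 6.31 and 6.27 FPKM against 6.33 and 5.81, with overlapping groups. Slc25a38, which supplies glycine for heme synthesis, was at 3.70 and 4.04 FPKM against 4.60 and 4.43, without overlap (adjusted p 0.321).

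Carriers of the core mitochondrial traffic had similar means in both groups. Slc25a4, the other adenine nucleotide translocase, was at 30.9 ± 1.25 and 28.7 ± 2.33 FPKM, and Slc25a11, the oxoglutarate carrier, at 15.99 ± 1.05 and 16.6 ± 1.27. Slc25a1, the citrate exporter that supplies lipid synthesis, varied more within groups than between them, at 3.803 and 6.17 FPKM in WTKL and 4.13 and 5.57 in LYZKL. Slc25a39, for glutathione import, and Slc25a51, for NAD, had ratios of 0.958 and 0.969. Slc25a20, the carnitine-acylcarnitine exchanger that feeds fatty acid oxidation, was at 3.87 and 4.66 FPKM against 5.29 and 4.86 (ratio 1.19, adjusted p 0.378). Slc25a30 was at 10.5 and 9.89 FPKM against 9.16 and 8.67 (ratio 0.876, adjusted p 0.273).

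Carriers of ions, phosphate and bicarbonate, 18 genes, had a median log2 difference of 0.06, with 7 higher and 3 lower without overlap and 4 higher and 1 lower at an unadjusted p under 0.05. Slc24a1 (chr9:64922861-64951607, minus strand), a sodium/calcium exchanger that needs potassium and is best known from rod photoreceptors, had the smallest p of the 129. It was at 2.78 and 2.57 FPKM in WTKL and 5.48 and 4.89 in LYZKL, from 224 and 306 reads against 470 and 467. The ratio of the means was 1.94 and the log2 difference 0.75 (SE 0.09), with an adjusted p of 0.0641 (0.000413 to 0.273 over the alternatives). Slc8a1, the sodium/calcium exchanger without potassium and far more abundant, was at 25.2 and 22.9 FPKM against 21.9 and 23.2, with overlapping groups.

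The phosphate carrier and a sulfate carrier stood higher in both LYZKL libraries. Slc20a1 was at 42.3 and 38.9 FPKM in WTKL and 50.3 and 47.6 in LYZKL, a log2 difference of 0.26 (SE 0.07, adjusted p 0.156, 0.0242 to 0.471 over the alternatives). Slc12a4 and Slc12a7, which export potassium with chloride, had ratios of 0.954 and 1.04, and Slc12a2, which imports these ions with sodium, 0.909. Slc26a11, a sulfate carrier, was at 1.81 and 1.57 FPKM against 2.81 and 2.52 (log2 difference 0.45, SE 0.11, adjusted p 0.146), while the sulfate carrier Slc26a2 was at 6.67 ± 0.105 and 6.26 ± 0.0471.

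RNA of a bicarbonate importer stood lower in both LYZKL libraries. Slc4a7 (chr14:14702279-14799940), which imports bicarbonate with sodium and is known to support acidification of macrophage phagosomes, was at 9.72 and 8.47 FPKM in WTKL and 6.51 and 7.45 in LYZKL. Both LYZKL libraries lay below both WTKL libraries, with means of 9.10 ± 0.886 and 6.98 ± 0.658 FPKM, a log2 difference of −0.34 (SE 0.10) and an adjusted p of 0.202 (0.0288 to 0.551 over the alternatives). This was the lowest of the 129 on the log2(FPKM + 1) scale, though by ratio Slc4a7 (0.767) stood above Slc30a1 (0.730) and Slc22a4 (0.759). Slc4a2, the chloride/bicarbonate exchanger, had a ratio of 1.05. The endosomal sodium/proton exchangers Slc9a7 and Slc9a9 had ratios of 0.996 and 1.07. Of 14 tested genes of lysosome acidification 3 were higher (Atp6v0a1, Tfeb and Atp6v0c) and none lower at an unadjusted p under 0.05. Of all genes tested, 10.9% were higher and 7.85% lower at that level. The groups did not overlap for 10 higher and 1 lower, against 27.8% and 24.4% of all genes, with a median of 0.12. Atp6v0a1, a subunit of the proton pump, was at 26.1 and 26.3 FPKM against 36.8 and 33.9 (adjusted p 0.0778).

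**Figure D4:**
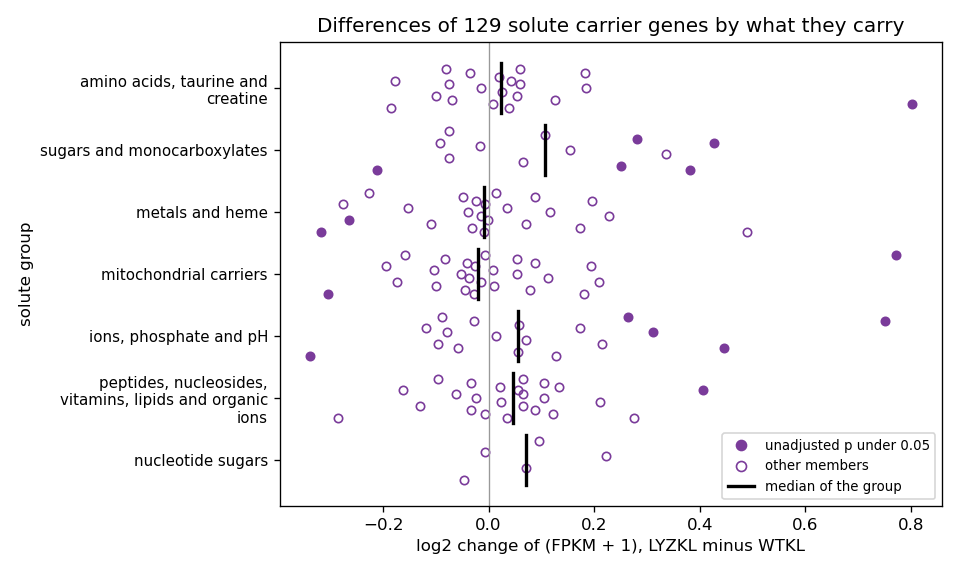
Difference in log2(FPKM + 1), LYZKL minus WTKL, for each of the 129 genes, in rows by the solute they carry. Filled points are the 16 genes at an unadjusted p under 0.05 and black bars the group medians, which lie between −0.02 for mitochondrial carriers and 0.11 for sugars and monocarboxylates.

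Carriers of peptides, nucleosides, vitamins, lipids and organic ions made up the last large group of 24 genes, with a median log2 difference of 0.05. Groups did not overlap for 6 higher and 3 lower, against 27.8% and 24.4% of all genes tested. Here 1 gene was at an unadjusted p under 0.05, against 18.8% of all genes. That gene was Slc10a1, the bile acid carrier known from hepatocytes, at 4.91 and 4.55 FPKM in WTKL and 6.1 and 7.11 in LYZKL, from 127 and 174 reads against 168 and 218 (log2 difference 0.41, SE 0.10, adjusted p 0.146). Slc22a15, an organic ion carrier, was at 1.33 and 1.11 FPKM against 1.82 and 1.56, with an adjusted p of 0.327 on FPKM and of 0.0302 in limma-voom, the lowest of a range up to 0.688. Slc22a4, which takes up ergothioneine, was at 2.74 and 2.69 FPKM against 1.79 and 2.33 (ratio 0.759, adjusted p 0.313), while its neighbour Slc22a5, a carnitine carrier 91463 bases away on chromosome 11, was at 1.35 ± 0.159 and 1.34 ± 0.00908.

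Lysosomal carriers tied to nucleic acid sensing did not differ beyond their spread. Slc15a3 had means of 195 ± 4.07 and 203 ± 14.7 FPKM (adjusted p 0.719), and Slc15a4, which holds the adaptor TASL for signalling by endosomal Toll-like receptors, 2.27 ± 0.214 and 2.35 ± 0.0942 (adjusted p 0.891). Slc29a3, which returns nucleosides from the lysosome, was at 6.04 ± 0.189 and 6.15 ± 0.342 FPKM (adjusted p 0.903), and Slc46a3, another lysosomal carrier, at 1.62 ± 0.308 and 1.65 ± 0.142. Slc19a1 and Slc46a2, among the carriers known to import cyclic dinucleotides, the ligands of STING, were low. Slc19a1, the reduced folate carrier, was listed at 0.251 and 0.330 FPKM in WTKL and 0.550 and 0.329 in LYZKL. Slc46a2 was at 0 in 3 libraries and 0.0215 in LYZKL replicate 1. Both were outside the set by level and outside the fit reported.

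Genes of carriers for other nutrients stood at moderate levels. Slc28a2 and Slc29a1, both nucleoside carriers, had means of 11.6 ± 0.769 and 12.4 ± 1.57 FPKM and of 8.98 ± 0.207 and 8.76 ± 0.420. Slc23a2, which takes up ascorbate, was lower in both LYZKL libraries, at 10.8 and 10.1 FPKM against 9.68 and 8.78 (ratio 0.884, adjusted p 0.355). The fatty acid carriers Slc27a1 and Slc27a4 were higher in both, with ratios of 1.12 and 1.21 and adjusted p of 0.491 and 0.384. Among the choline carriers Slc44a2 did not overlap between groups (ratio 1.12, adjusted p 0.477) and Slc44a1 did. Slc17a5, which exports sialic acid from lysosomes, had a ratio of 1.10, and Slc17a9, which loads ATP into vesicles, 0.876.

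Nucleotide sugar carriers of the Golgi, 5 genes of family 35, had a median log2 difference of 0.07 and no gene at an unadjusted p under 0.05. Slc35a1, for CMP-sialic acid, was the most abundant at 12.4 ± 0.996 and 12.3 ± 0.608 FPKM. Slc35a5 was at 1.13 and 1.19 FPKM in WTKL and 1.63 and 1.41 in LYZKL (ratio 1.31, adjusted p 0.393), and Slc35a2, for UDP-galactose, had a ratio of 0.940. Of 23 tested transporter genes outside the name form, such as organic anion carriers, pyruvate carriers and lysosomal exporters, 1 was higher and none lower at an unadjusted p under 0.05. Their median was 0.02. That gene was Slc35c2, of the same superfamily, at 4.21 and 4.11 FPKM against 5.61 and 5.19 (adjusted p 0.15).

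**Figure D5:**
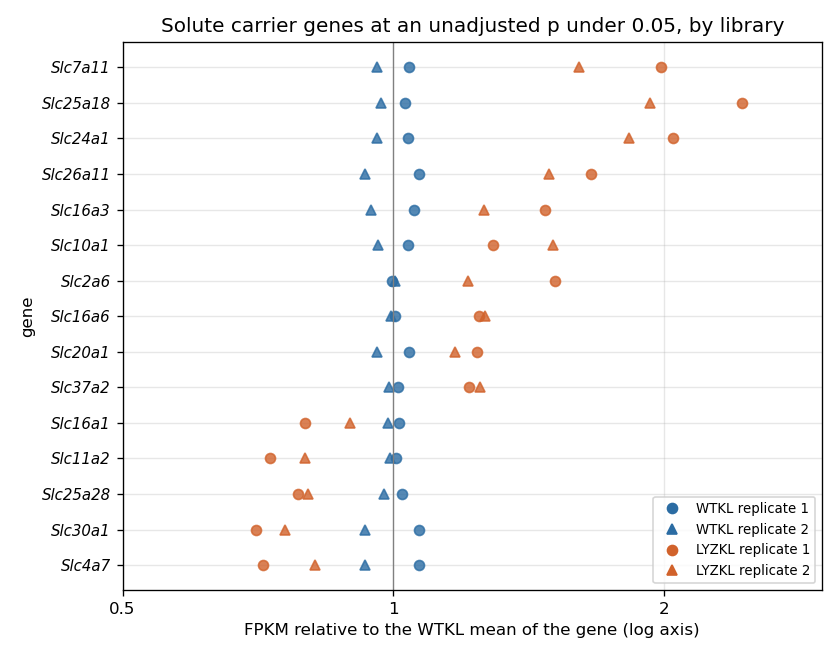
FPKM in each library divided by the WTKL mean of the gene (log axis) for 15 of the 16 solute carrier genes at an unadjusted p under 0.05, with 1 point per library. Slc7a11, Slc25a18 and Slc24a1 lie farthest to the right, and LYZKL replicate 1 lies farther from the WTKL mean than LYZKL replicate 2 for most of the genes.

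The groups did not overlap for any of the 16 genes at an unadjusted p under 0.05. The p-value and the separation use the same 4 values of each gene, so the separation adds no support. The size of the difference depended on the library in several of the 16 genes. LYZKL replicate 1 stood at 31.6 against 25.6 FPKM in replicate 2 for Slc7a11 and at 3.69 against 2.91 for Slc25a18. LYZKL replicate 1 also had the higher summed neutrophil markers, most of that sum being S100a9, and any link to these differences was not tested. Slc10a1, Slc16a6 and Slc37a2 had their higher value in LYZKL replicate 2. Without LYZKL replicate 1 the log2 difference was 0.66 for Slc7a11 and 0.64 for Slc25a18. Without LYZKL replicate 2 these differences were 0.95 and 0.90. For Slc10a1 the order was reversed, with 0.50 without LYZKL replicate 1 and 0.31 without LYZKL replicate 2.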

How the data were processed

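The authors deposited 1 table of FPKM values with 1 column per library; poly(A) RNA was sequenced without marking strand, per the labels' protocols. Tools named in the submitters' processing notes are Cell Ranger 6.1.2, featureCounts 2.0.0 and HISAT2 2.0.5, with build mm10 and no roles. The gene lengths behind FPKM are not stated in these sources.

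From these values, LYZKL was compared with WTKL in limma 3.58.1 (R 4.3.3), using log2(FPKM + 1), a mean-variance trend and the genes averaging 1 FPKM or more. Tests were two-sided, adjusted by Benjamini-Hochberg over all genes tested, with a threshold of 0.05. The scale understates changes of low genes. Whole reads were rebuilt from FPKM with GENCODE M21 exon lengths, 105 of the 129 genes at the annotated length and 24 at a length searched, and tested with limma-voom. Pearson correlations across genes were 0.9796 (WTKL) and 0.9798 (LYZKL) within groups and 0.9684 to 0.98 between them. Promoters came from RefSeq (GRCm38.p6).

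The genes, lists and naming rule (the most abundant, the largest differences without overlap, the leading genes of each family and carriers with known macrophage roles) were chosen with earlier results of these data known. Further genes were named after their values were seen. Some genes of this name form are not reported here.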

Additional observations from a re-analysis of the deposited data

How the results depend on the processing

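The alternatives were other pseudocounts (0.1 and 5 FPKM), no filter, a filter at 5 FPKM, no trend, upper quartile scaling, quantile normalization, leaving out each library, a replicate block and limma-voom on rebuilt reads. Solute carrier genes past the threshold numbered 0 in the fit reported and in 11 of these 13 alternatives, 14 with limma-voom and 1 (Slc7a11) when the fit was limited to genes averaging 5 FPKM or more. Genes at an unadjusted p under 0.05 numbered 16, 27 with limma-voom, and from 7 (without LYZKL replicate 1) to 18 (without LYZKL replicate 2) when 1 library was left out, including 9 without WTKL replicate 2. A library left alone in its group is assumed to vary like the other group. The cause of these shifts was not tested, and leaving out a library also leaves fewer samples. With the replicate block 0 passed and 16 were at an unadjusted p under 0.05; same-numbered libraries had a correlation of 0.1596 in their deviations, which with 2 pairs does not show pairing. The median log2 difference stayed within the replicate spread of 0.04 in every alternative. Of the 129 genes, 47 changed sign in at least 1 alternative, none with a difference beyond 0.13 in size. Depth limits the genes with few reads, the fewest being 42 to 66 a library for Slc26a10.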
